A study of Homo sapiens with 6 samples.

Results

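Complement is a cascade of plasma proteins, most of them made by hepatocytes, that marks and kills microbes and damaged cells. The classical, lectin and alternative pathways converge on cleavage of C3, and cleavage of C5 then starts the membrane attack complex, a pore built from C5b, C6, C7, C8 and C9. Soluble and membrane-bound regulators keep the cascade away from healthy cells. The genes described here are 38 complement components, regulators and receptors, taken by symbol from a count table of 52408 genes, in which each of the 38 was found. They were read in HepG2 cells, a human liver cancer line, given 50 µM ellagic acid (EA, a plant polyphenol) for 24 h or an equal volume of its solvent DMSO, with 3 libraries per group. The labels do not say whether a group's libraries came from different culture dishes. The p-values therefore measure only the spread between these libraries, which may be technical. The comparison asks how the compound changes the complement genes of these cells.

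With EA the liver-made parts of complement were mostly lower, and the RNAs of the membrane regulators moved in opposite directions. By the fitted fold change, C8A, MBL2, C8B, C5 and CFI fell most, between 10.1-fold and 43.8-fold, with C6 next at 9.30-fold. C3, the central component, fell 1.84-fold. Among genes of membrane regulators, CD55 RNA rose 11.9-fold and CD59 RNA rose 2.69-fold, while CD46 RNA fell 1.82-fold. Of the 38 genes, 26 had enough reads to be tested. In edgeR's quasi-likelihood test (adjusted p under 0.05, all genes adjusted together) 21 of these 26 were lower with EA, 3 were higher and 2 did not pass. The background was wide, since 81.0% of the 15648 genes tested passed, 40.5% higher and 40.5% lower. The 26 had a median log2 fold change (EA over DMSO, so values under 0 are lower with EA) of -1.20, against 0.00441 over all genes tested. A fall of 2-fold or more was called for 14 of the 26, against 21.5% of all genes tested, and one of 4-fold or more for 9, against 7.08%. A rise of 2-fold or more was called for 2 of the 26 (7.69%), against 23.4% of all genes tested. In 24 of the 26 the EA and DMSO libraries did not overlap, against 82.9% of all genes tested. Genes high in DMSO alone can pass the filter on reads, so these counts describe the tested genes and not the whole family.

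**Figure D1:**
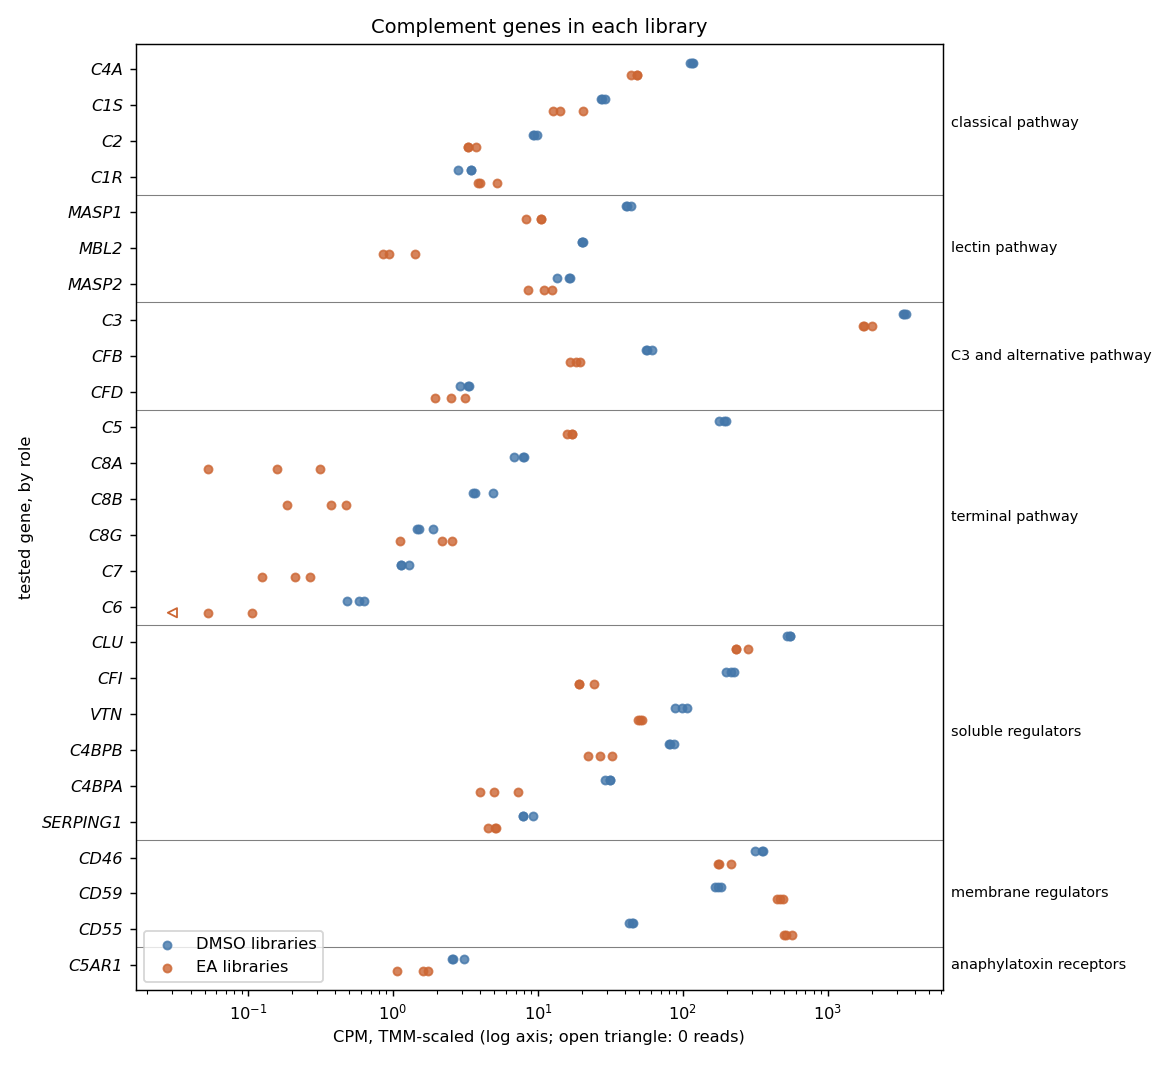
Level of the 26 tested complement genes in each library, in CPM (a gene's reads per 1000000 reads of the library, log axis), grouped by role, with each point 1 library. Only CFD and C8G show overlapping EA and DMSO points, and CD55, CD59 and C1R alone have EA points to the right of the DMSO points.

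**Figure D2:**
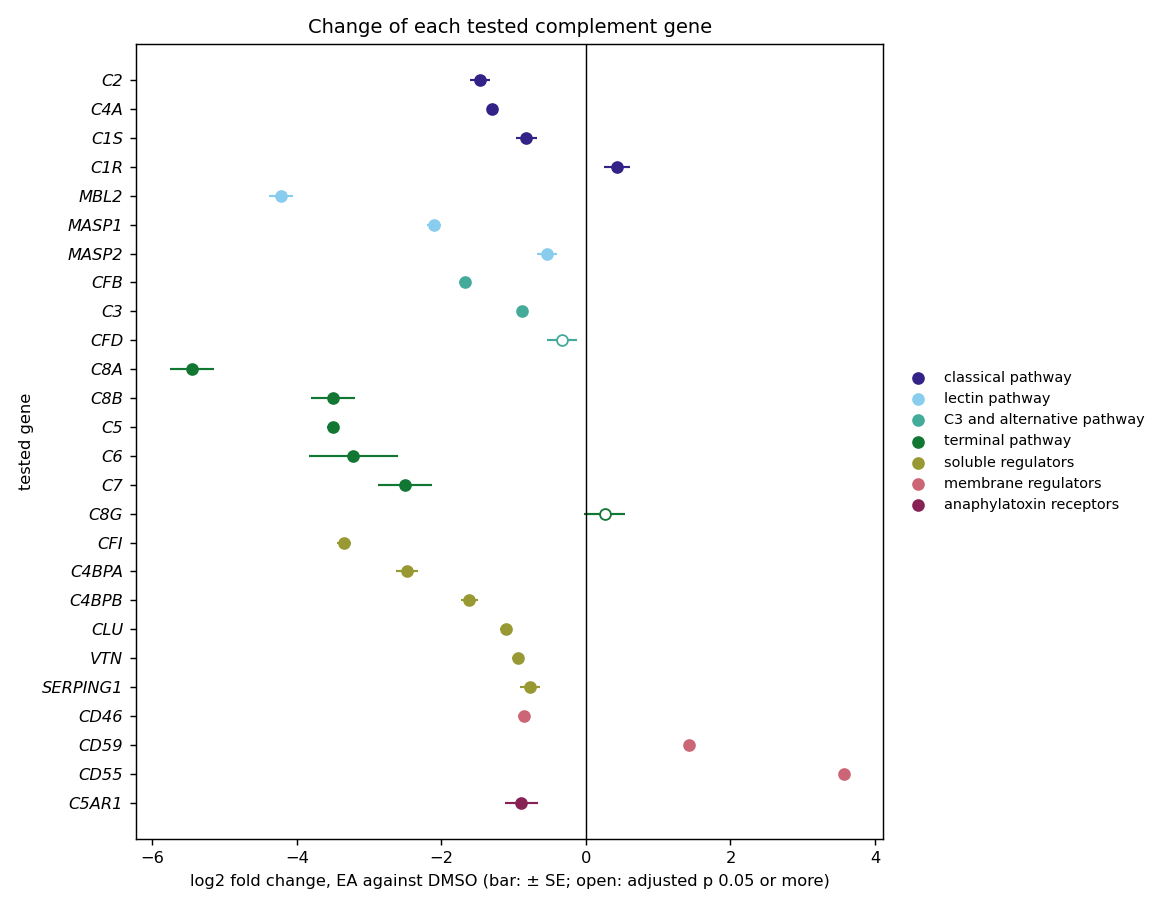
Log2 fold change of each tested complement gene, EA against DMSO, with its SE, coloured by role. Values run from -5.45 for C8A to 3.57 for CD55, and the open points of CFD and C8G did not pass an adjusted p of 0.05.

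Depth was 22987425 to 25973621 assigned reads per DMSO library, and the EA libraries were shallower at 15738089 to 19202292. At these depths 3 reads, the limit that a count of 0 allows, correspond to 0.117 to 0.187 CPM. This limit and the intervals of read ratios cover counting error only. EA replicate 3 was distant from both other EA libraries on principal component 2 (33.8 against -18.5 and -14.2, 2.49% of the variance). It was the highest EA library in 15 of the 26 tested complement genes and the lowest in 6. The 10 hepatocyte markers examined (among them ALB, TTR and APOB) were all detected and all called lower with EA. For comparison with this list and the marker lists below, 40.5% of all genes tested were called higher and 40.5% lower. The summed level of the 10 went from 49310 to 51727 CPM in DMSO to 11716 to 12485 CPM in EA. Most of the DMSO sum was APOB, whose mean went from 29447 to 3080 CPM. The falls of the 10 were unequal, from 1.43-fold (TF) to 21.8-fold (APOC3), with ALB at 2.28-fold. Of 10 macrophage markers, 4 were tested and CD163, CD68, TYROBP and PTPRC had 0 reads in every library. Their summed level, 1779 to 1861 CPM in DMSO and 294 to 362 CPM in EA, was nearly all LYZ. LYZ, CD14 and FCER1G were called lower, while CSF1R was called higher, from a mean of 0.109 to 1.85 CPM. Endothelial markers summed to 5.43 to 5.64 CPM in DMSO and 14.3 to 16.8 CPM in EA (4 of 7 tested). Among them VWF, LYVE1 and STAB2 were higher and CDH5 was lower. Stellate cell and fibroblast markers summed to 48.1 to 49.0 CPM in DMSO and 57.1 to 62.6 CPM in EA (4 of 8 tested). Of these only ACTA2 was higher, from 30.6 to 53.7 CPM, while PDGFRB, COL1A1 and RGS5 were lower and COL1A2 and DCN had 0 reads. The part of this shift in the changes below was not tested. All libraries are of a single cell line, HepG2, so these sums are RNA levels in that line and not counts of cell types. Whether all of its cells changed or only a part of them cannot be told from such libraries.

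In the classical pathway, antibody binds C1q, whose proteases C1r and C1s then cleave C4 and C2. The C1q chain genes C1QA, C1QB and C1QC, which are mainly expressed by macrophages, had 0 reads in all 6 libraries. C4A (ENSG00000244731) stood at 117, 116 and 112 CPM in DMSO and at 48.5, 43.98 and 47.9 CPM in EA. Its groups were far apart, and its log2 fold change was -1.30 (SE 0.07, adjusted p = 1.19e-10 by edgeR). C4B, its near-identical copy, was given 11, 9 and 4 reads in DMSO and 2, 0 and 0 in EA. It therefore held 0.141% to 0.364% of the reads of the C4 pair in DMSO. Reads that match both copies cannot be assigned by sequence, so this split is uncertain. The summed level of C4A and C4B went from 115.2 ± 3.11 to 46.8 ± 2.49 CPM (mean ± SD, n = 3). This sum is nearly all C4A, and it may leave out reads that match both copies. C2, the protease that joins C4b in the C3 convertase, went from 9.42, 9.87 and 9.24 to 3.30, 3.28 and 3.75 CPM. Its log2 fold change was -1.46 (SE 0.14), and 32.9% of its exon length is shared with a read-through gene in GENCODE 29.

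The C1 proteases parted. C1S went from 29.001, 27.3 and 27.8 CPM to 12.6, 14.1 and 20.6 CPM, with EA replicate 3 the highest of the EA libraries. Its log2 fold change was -0.82 (SE 0.15, adjusted p = 0.000282 by edgeR). C1R stood at 3.46, 3.44 and 2.79 CPM in DMSO and at 3.86, 3.97 and 5.18 CPM in EA, so the groups lay close without overlapping. It passed as higher (log2 fold change 0.43, SE 0.18, adjusted p = 0.0401 by edgeR), but 10 of 17 alternative settings ended the call, with adjusted p up to 0.203. The call was lost without EA replicate 3 (log2 fold change 0.25) and without any 1 of the DMSO libraries (0.46, 0.45 and 0.30). Within libraries the ratio of C1S to C1R went from 8.76 ± 1.06 to 3.60 ± 0.350 (SD, n = 3). An exact two-sided permutation test gave p = 0.1, the smallest that 3 against 3 libraries allow, and 0.105 after Benjamini-Hochberg adjustment over the 22 summed levels, shares and ratios examined. GENCODE 29 places 11.4% of the exon length of C1R within C1RL on the same strand.

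The lectin pathway starts when mannose-binding lectin or a ficolin binds sugars on a microbe, and its proteases MASP1 and MASP2 act like C1r and C1s. MBL2 (ENSG00000165471), the gene of mannose-binding lectin, was read at 20.2, 20.01 and 20.3 CPM in DMSO. With EA it was at 0.934, 0.848 and 1.43 CPM. It had a log2 fold change of -4.22 (SE 0.16, adjusted p = 3.06e-12 by edgeR), place 117 from the bottom among the 15648 genes tested. MASP1 went from 44.1, 40.6 and 41.3 to 8.28, 10.5 and 10.4 CPM (log2 fold change -2.10, SE 0.10). MASP2, the protease that cleaves C4 and C2 in this pathway, changed less. Its values were 13.5, 16.3 and 16.6 CPM in DMSO and 12.4, 11.1 and 8.51 CPM in EA (log2 fold change -0.54, SE 0.14, adjusted p = 0.00223 by edgeR). The ficolin gene FCN3 had 0 reads in all libraries.

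C3 (ENSG00000125730) carried most complement reads. Of the reads of the 38 genes it held 61.8%, 63.7% and 61.9% in DMSO and 52.5%, 51.1% and 53.4% in EA. Its level was 3377, 3460 and 3292 CPM in DMSO and 1773, 1740 and 1999.8 CPM in EA, a log2 fold change of -0.88 (SE 0.07, adjusted p = 2.26e-08 by edgeR). In order of mean CPM it went from place 11 to place 31 among all genes in the table. CFB, which provides the protease of the alternative pathway convertase, fell further. It went from 60.7, 55.3 and 56.6 to 16.5, 18.2 and 19.3 CPM (log2 fold change -1.67, SE 0.09), and 45.01% of its exon length is shared with the same read-through gene as C2. CFD, the protease that activates factor B, stood at 3.35, 2.91 and 3.26 CPM in DMSO and at 2.49, 3.13 and 1.96 CPM in EA. The groups overlapped and CFD did not pass (log2 fold change -0.33, SE 0.20, adjusted p = 0.145 by edgeR). Without EA replicate 2 its adjusted p was 0.0434, with a log2 fold change of -0.53. CFP, the gene of properdin, which stabilises that convertase, had 1, 0 and 5 reads in DMSO and 5, 6 and 6 in EA, too few for the test. DMSO replicate 3 alone held 5 of the 6 DMSO reads.

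The terminal components included C8A, the gene with the lowest log2 fold change of the 26. C5 (ENSG00000106804) stood at 193, 176 and 198 CPM in DMSO and at 17.1, 15.9 and 17.2 CPM in EA. Its log2 fold change was -3.50 (SE 0.08, adjusted p = 1.32e-14 by edgeR), or 11.3-fold lower. Because C3 fell much less than C5, the ratio of C3 to C5 within libraries went from 17.5, 19.7 and 16.6 to 104, 109 and 116. C6 and C7, which bind C5b in turn, were low from the start. C6 had 15, 11 and 16 reads in DMSO and 0, 1 and 2 in EA, a ratio of 0.0983 (95% exact counting interval 0.0195 to 0.308). Its fitted log2 fold change was -3.22 (SE 0.62), and -4.08 without EA replicate 3. C7 went from 1.28, 1.131 and 1.1404 to 0.124, 0.265 and 0.211 CPM (log2 fold change -2.51, SE 0.38). C9, which forms the wall of the pore, had 1 read in DMSO and 2 in EA over all libraries.

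The C8 subunits did not change together. C8 is built from alpha and beta chains that insert into the membrane and a small gamma chain of the lipocalin family. C8A (ENSG00000157131) had 203, 156 and 205 reads in DMSO and 5, 3 and 1 in EA. This is 7.90, 6.79 and 8.06 CPM against 0.311, 0.159 and 0.0528 CPM, and its log2 fold change of -5.45 (SE 0.31, adjusted p = 1.99e-10 by edgeR) rests on these few EA reads. It was -6.10 without EA replicate 1 and -5.04 without EA replicate 3. C8B went from 4.87, 3.57 and 3.70 to 0.187, 0.477 and 0.370 CPM (log2 fold change -3.50, SE 0.30). C8G was at 1.52, 1.87 and 1.45 CPM in DMSO and at 2.55, 2.172 and 1.11 CPM in EA, where EA replicate 3 lay under all DMSO libraries and the other two above them. It did not pass (log2 fold change 0.26, SE 0.28, adjusted p = 0.406 by edgeR), whereas without EA replicate 3 it did (0.52, adjusted p = 0.0425). The ratio of C8A to C8G within libraries went from 5.21, 3.63 and 5.54 to 0.122, 0.0732 and 0.0476 (exact two-sided permutation p = 0.1, 0.105 adjusted).

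All 6 tested soluble regulators were called lower, where 40.5% of all genes tested were. CFI (ENSG00000205403), the protease that inactivates C3b and C4b, stood at 224, 199 and 213 CPM in DMSO and at 19.3, 19.0 and 24.3 CPM in EA. Its log2 fold change was -3.34 (SE 0.10, adjusted p = 2.20e-13 by edgeR), or 10.1-fold lower, and 32.0% of its exon length is shared with another protein-coding gene model on the same strand. The ratio of C3 to CFI went from 15.96 ± 1.25 to 88.5 ± 5.44 (SD, n = 3). C4b-binding protein, a cofactor of factor I, has alpha chains encoded by C4BPA and a beta chain encoded by C4BPB. C4BPA went from 31.1, 29.01 and 31.1 to 3.98, 4.98 and 7.29 CPM (log2 fold change -2.48, SE 0.16). C4BPB went from 80.3, 81.3 and 87.3 to 26.8, 22.1 and 32.4 CPM (log2 fold change -1.61, SE 0.11). Both chains were highest in EA replicate 3 among the EA libraries. Neither overlapped with DMSO, which also held for 82.9% of all genes tested.

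Clusterin and vitronectin hold assembling attack complexes in solution. CLU went from 545, 549 and 521 to 233, 232 and 282 CPM (log2 fold change -1.11, SE 0.08). VTN went from 106, 98.0 and 87.8 to 50.4, 48.7 and 52.4 CPM (log2 fold change -0.94, SE 0.08). SERPING1, which encodes the C1 inhibitor, had 9.30, 7.83 and 7.90 CPM in DMSO and 5.10, 4.50 and 5.07 CPM in EA (log2 fold change -0.77, SE 0.14, adjusted p = 0.000115 by edgeR). Each of these stayed clear of the DMSO range in every EA library, as did 82.9% of all genes tested. The factor H-related genes CFHR2, CFHR3, CFHR4 and CFHR5 had 0 reads in all libraries. A listed 0 need not mean absent RNA here, since all 37 genes of the table named MT-, the mitochondrial genome's own genes, also stood at 0.

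Membrane regulators protect the cell that carries them. CD55, or decay-accelerating factor, takes C3 convertases apart, CD46 is a cofactor for cleavage of C3b and C4b by factor I, and CD59 blocks the addition of C9 to the pore. CD55 (ENSG00000196352) stood at 44.5, 42.5 and 44.9 CPM in DMSO and at 510.3, 561 and 498 CPM in EA. The lowest EA library was far above the highest DMSO library. Its log2 fold change was 3.57 (SE 0.07, adjusted p = 5.98e-15 by edgeR), and it went from place 5028 to place 232 in order of mean CPM among all genes of the table. CD59 (ENSG00000085063) went from 183, 166 and 174 to 446, 467 and 493 CPM (log2 fold change 1.43, SE 0.07, adjusted p = 2.92e-11 by edgeR). CD46 (ENSG00000117335) went the other way, from 356, 315 and 353 to 176, 174 and 213 CPM (log2 fold change -0.86, SE 0.08, adjusted p = 1.97e-07 by edgeR). The EA values of CD46 again lay under all DMSO values, with EA replicate 3 nearest to them.

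Together the membrane regulators went from 560 ± 31.1 to 1180 ± 40.6 CPM (SD, n = 3). Of their reads, CD46 gave 61.0%, 60.2% and 61.7% in DMSO and 15.6%, 14.5% and 17.7% in EA. CD55 gave 7.63%, 8.10% and 7.86% in DMSO and 45.04%, 46.7% and 41.4% in EA. The share of CD59 moved less, from 31.2% ± 0.661 to 39.7% ± 1.07. The secreted components and regulators, summed without C3, went from 1468 ± 33.2 to 490 ± 44.99 CPM over the same libraries. Each of these differences had an exact two-sided permutation p = 0.1, the smallest possible with 3 libraries a group (0.105 adjusted).

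**Figure D3:**
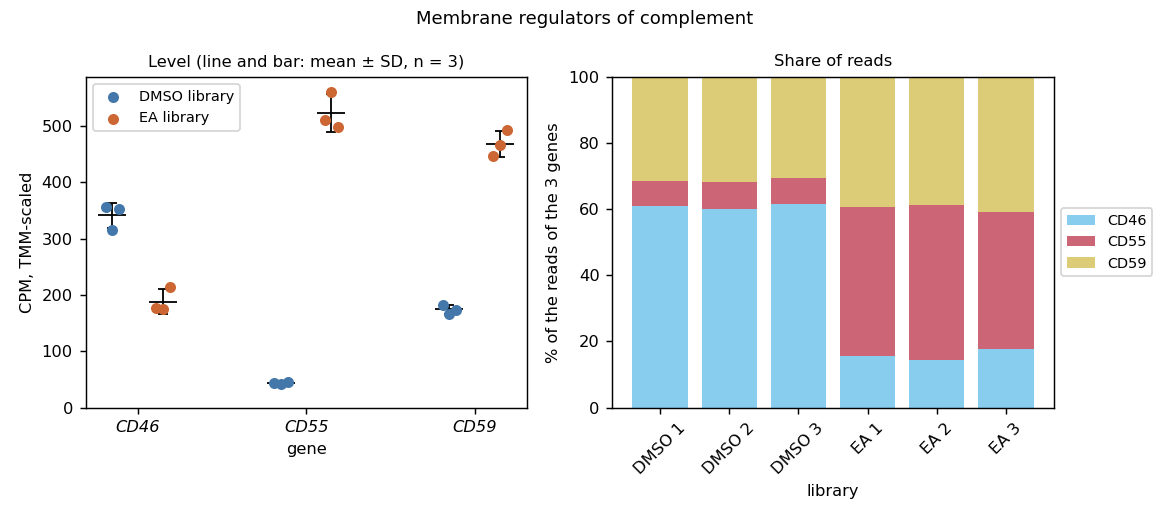
Left, CPM of CD46, CD55 and CD59 in each library with mean and SD (n = 3). Right, share of the reads of these 3 genes that each gave in each library, where CD46 gives 60.2% to 61.7% of the DMSO reads and CD55 the most in every EA library.

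Promoter sequences of both membrane regulators that rose are shown with those of C4BPA and C5, the falling genes whose windows held letters of an HNF1 site. Each window runs from 250 bases before the start of a RefSeq transcript to 50 bases from it on, 5′ to 3′ on the gene's strand, and capitals mark matches to the motifs given below. CD55 is at chr1:207321428-207321727 on the plus strand, CD59 at chr11:33722678-33722977 on the minus strand, C4BPA at chr1:207103983-207104282 on the plus strand and C5 at chr9:121050226-121050525 on the minus strand, all in RefSeq's GRCh38.p14. These windows were chosen after the matches had been seen. For CD59 the window is 1 of 4 in the table and for C5 1 of 2, and the count data do not show which start was used.
CD55: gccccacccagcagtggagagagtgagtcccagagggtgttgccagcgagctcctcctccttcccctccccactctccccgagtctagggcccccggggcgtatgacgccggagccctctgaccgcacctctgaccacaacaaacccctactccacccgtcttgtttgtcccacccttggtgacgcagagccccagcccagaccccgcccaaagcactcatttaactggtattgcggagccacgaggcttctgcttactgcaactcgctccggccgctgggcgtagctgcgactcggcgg
CD59: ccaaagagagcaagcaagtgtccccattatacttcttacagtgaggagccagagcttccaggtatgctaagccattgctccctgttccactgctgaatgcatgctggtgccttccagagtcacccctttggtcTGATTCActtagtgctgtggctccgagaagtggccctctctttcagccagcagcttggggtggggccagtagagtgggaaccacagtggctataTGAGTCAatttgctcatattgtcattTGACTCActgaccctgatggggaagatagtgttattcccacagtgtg
C4BPA: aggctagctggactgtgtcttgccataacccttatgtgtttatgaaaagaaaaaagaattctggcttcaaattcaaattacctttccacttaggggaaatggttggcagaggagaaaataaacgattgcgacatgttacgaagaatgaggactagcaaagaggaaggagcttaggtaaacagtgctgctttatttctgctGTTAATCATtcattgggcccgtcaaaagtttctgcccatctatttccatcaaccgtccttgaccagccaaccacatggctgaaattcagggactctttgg
C5: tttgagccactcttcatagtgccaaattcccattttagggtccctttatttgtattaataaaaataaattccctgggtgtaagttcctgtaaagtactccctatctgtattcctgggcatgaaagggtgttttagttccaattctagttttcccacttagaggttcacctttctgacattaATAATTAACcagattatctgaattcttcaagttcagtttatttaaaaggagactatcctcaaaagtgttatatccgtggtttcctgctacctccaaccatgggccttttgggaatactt

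RefSeq promoters were at hand for 20 of the 26 tested genes, as 31 windows, some of which overlap within a gene. They were searched on both strands for 7 motifs, and the share in all 34943 windows of the table is given beside each. The median share of G and C bases was 53% in the 31 windows, against 58.7% in all windows. How far this base composition bears on the shares of motifs was not tested. HNF1 letters (GTTAATNAT) were in 2 of the 31 windows (6.45%, against 0.796%), in C4BPA at 50 bases before the start and in C5 on the reverse strand. STAT letters (TTCNNNGAA) were in 10 of the 31 (32.3%, against 7.66%), which belonged to C1R, C4BPB, C7, CD59, CFB, MASP2, MBL2 and VTN. For C4BPB and for CD59 the same match was counted in overlapping windows. C/EBP letters (TTGCNNAA) were in 7 (22.6%, against 10.5%), from C1R, C6, CD59, MBL2 and VTN. AP-1 letters (TGANTCA) were only in the CD59 window shown, which holds 3 matches (3.23% of windows, against 7.72%). NF-kB letters (GGNNTTTCC) were in 2 windows (6.45%, against 6.25%), TATAAA in 2 (6.45%, against 11.6%) and HNF4 letters (CAAAGTCCA) in 0 (against 0.383%). The CD55 window held a match to none of these 7 motifs. The STAT letters occurred in windows of genes that fell, of CD59, which rose, and of C1R. The call of C1R as higher was lost in 10 of 17 settings. Such matches describe letters and not bound sites.

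C5AR1, the receptor for the C5a fragment, fell from 2.53, 3.09 and 2.60 to 1.62, 1.75 and 1.06 CPM (log2 fold change -0.89, SE 0.23, adjusted p = 0.00251 by edgeR). C3AR1, the receptor for C3a, had 0 reads in DMSO and 1, 3 and 5 in EA replicates 1, 2 and 3. By the 95% exact counting interval of these reads this is at least 2.72-fold higher, and it is 4.13 times a floor of 3 DMSO reads in total. Both receptors are known mainly from myeloid cells, and both were low here.

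Levels of different genes were compared per exon length, as RPKM (CPM divided by the exon length in kilobases). In DMSO the order was led by C3 at 405 ± 10.1 RPKM, then CLU at 81.3 ± 2.25, CFI at 43.5 ± 2.60, VTN at 40.1 ± 3.73 and CD46 at 39.2 ± 2.58 (SD, n = 3). VTN differed from CFI and from CD46 by less than its own SD. With EA, C3 still led at 221 ± 17.002 RPKM, followed by CD55 at 88.5 ± 5.66, CD59 at 45.3 ± 2.23 and CLU at 37.6 ± 4.29. CD55 thus moved from place 12 to place 2 among the 26, while CFI moved from 3 to 9 and C5 from 6 to 11. CD46 kept place 5, at 21.6 ± 2.53 RPKM, next to VTN at 20.8 ± 0.759, from which it differed by less than its SD. C8A moved from place 16 to place 24, and C6 and C7 held the last 2 places in both groups.

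**Figure D4:**
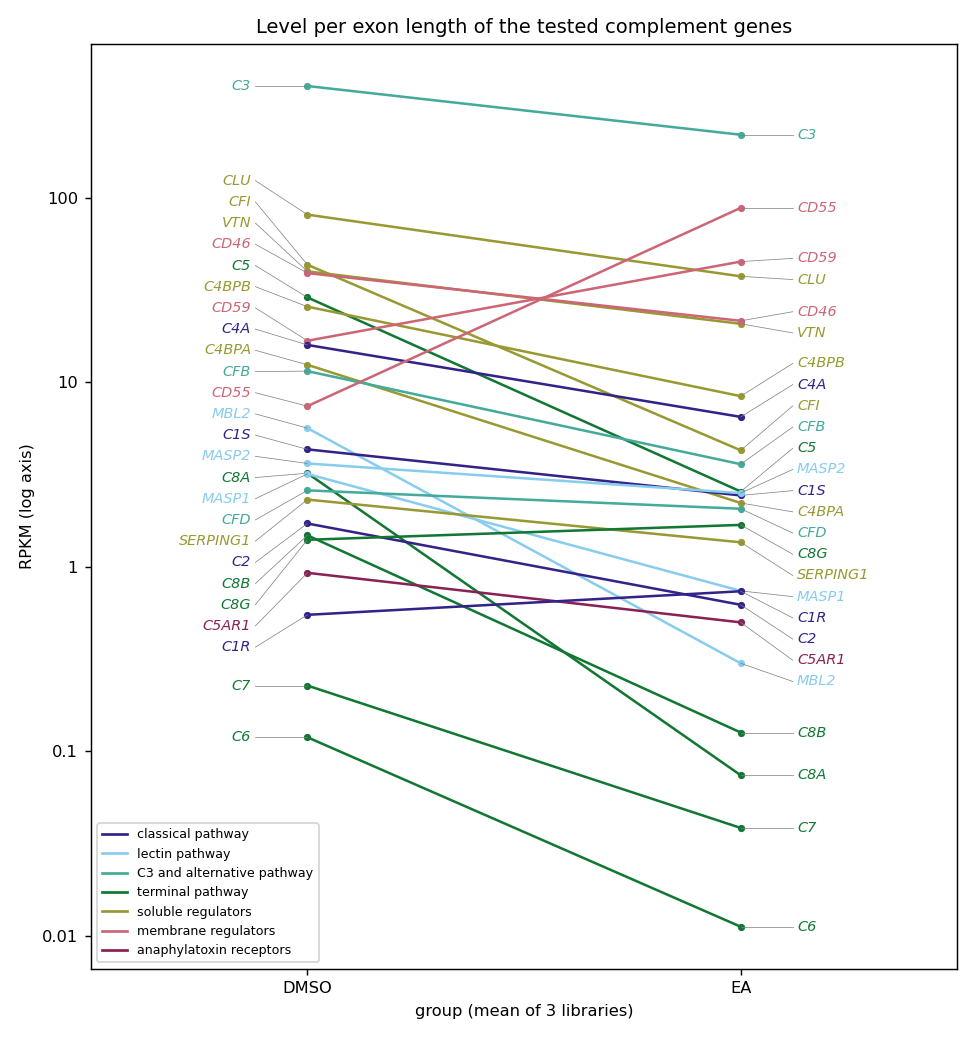
Mean level of the 26 tested genes in DMSO and EA (n = 3 each), as RPKM on a log axis, with lines coloured by role. CD55 and CD59 rise to places 2 and 3, at 88.5 and 45.3 RPKM, and C8A, C5 and CFI have steep lines downward.

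Several complement genes sit beside each other in the genome, and these neighbours did not all move alike. In the cluster of complement regulators on chromosome 1, in RefSeq's order on GRCh38.p14, C4BPB, C4BPA and CD55 follow each other with 0 protein-coding genes between them, and CD46 comes after 3 more. Their log2 fold changes were -1.61, -2.48, 3.57 and -0.86. C8A and C8B, also adjacent on chromosome 1, both fell (log2 fold changes -5.45 and -3.50). C2, CFB and C4A, in the major histocompatibility region of chromosome 6, fell within a narrow range of log2 fold changes (-1.46, -1.67 and -1.30). C1S and C1R are adjacent on chromosome 12 and differed in sign (-0.82 and 0.43), with the call of C1R lost in 10 of 17 settings. C7 and C6 on chromosome 5 were both lower, with 1 protein-coding gene between them.

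**Figure D5:**
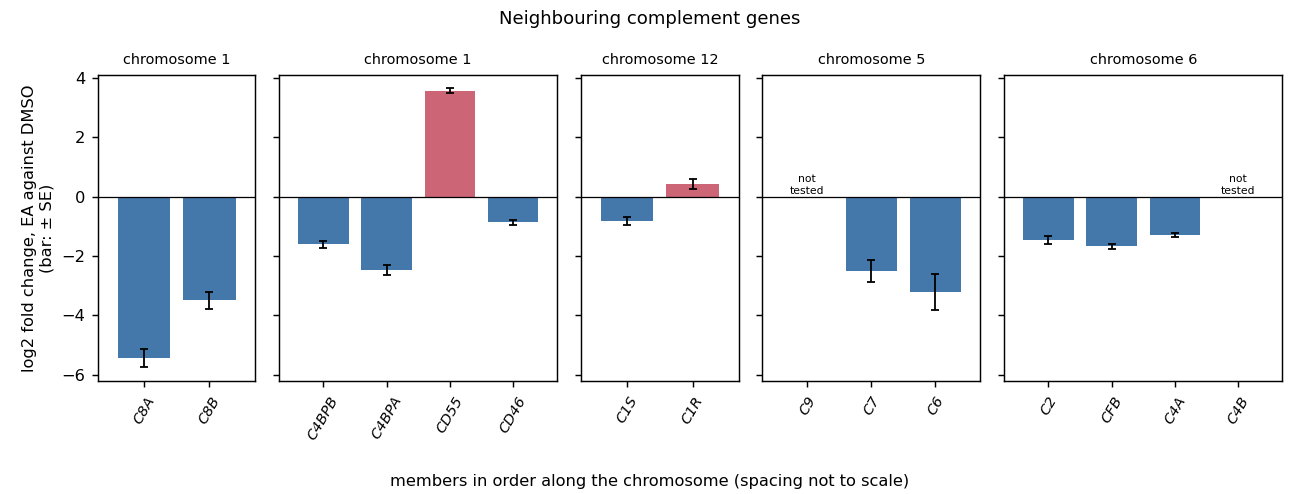
Log2 fold change (± SE) of complement genes that lie near each other, in order along the chromosome, with genes below the read filter marked as not tested. CD55 is above 3 while its neighbours C4BPA, C4BPB and CD46 are under 0.

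Other complement genes were taken from a list of 22. Of these, 10 were tested, with 4 higher (40%), 5 lower (50%) and 1 not passing, shares near the 40.5% in each direction over all genes tested (median log2 fold change -0.45, against 0.00441 over all genes tested). The higher ones included all chains examined of the leukocyte integrins that act as complement receptors. ITGAX, the alpha chain of complement receptor 4, went from 0.180 ± 0.115 to 39.6 ± 0.852 CPM (log2 fold change 7.77, SE 0.19). ITGAM, the alpha chain of complement receptor 3, went from 0.0682 ± 0.0257 to 1.75 ± 0.631 CPM, and their shared beta chain ITGB2 from 7.94 ± 0.731 to 13.3 ± 1.73. CD93, once named a C1q receptor, went from 0.0664 ± 0.0803 to 7.38 ± 0.682 CPM. ITGAX, ITGAM and CD93 had only 13, 5 and 5 reads in DMSO in total and passed the filter through their EA reads. The count of genes called higher therefore describes the tested genes and not the whole list. Lower were both subunits of carboxypeptidase N, which trims the anaphylatoxins C3a and C5a. CPN2 had a log2 fold change of -4.06 (SE 0.09) and CPN1 one of -3.25 (SE 0.15). C1QBP, a mitochondrial protein that binds C1q heads, PROS1, which encodes the protein S that binds the C4BPB chain, and C1RL also fell (log2 fold changes -1.60, -1.97 and -0.71). COLEC11, a collectin of the lectin pathway, did not pass (log2 fold change -0.19, SE 0.17). SUSD4, a membrane inhibitor of complement, had 0 reads in DMSO and 14, 9 and 6 in EA, at least 10.1-fold higher by the same kind of interval and 13.3 times the same floor, though below the filter. COLEC10, FCN1, FCN2, CR1, APCS and PTX3 had 0 reads throughout.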

How the data were processed

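The data are RNA-seq libraries of HepG2 cells, 3 per group. Per the labels' protocols, 1 µg of total RNA with an integrity number above 7 went into NEBNext Ultra libraries, read as 150 bp pairs. Build hg19 and the tools HTSeq 0.6.1, HISAT, cutadapt 1.9.1 and bcl2fastq 2.17.1.14 are named in the submitters' processing notes. No source used here gives the annotation release or strand setting, so reads of overlapping and antisense genes may be mixed or left out. The authors deposited raw counts per gene, not normalised, and columns were matched to samples by name.

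Genes were filtered by filterByExpr, scaled by TMM and tested by edgeR 4.0.16 (R 4.3.3, quasi-likelihood F test, robust) with Benjamini-Hochberg adjustment over 15648 genes. CPM used TMM-scaled library sizes, and the SE is the log2 fold change over the square root of F. Exon lengths and overlaps came from GENCODE 29 on GRCh38, another build, so no coordinates were taken from it. On simulated counts of 15648 genes for EA against DMSO, 35 of 50 genes changed 1.5-fold were recovered, 45 of 50 at 2-fold, 49 at 4-fold and 48 at 8-fold, with 9 false calls. There only these few genes changed, as many up as down, and none was drawn from the lowest counts. All genes had the same coefficient of variation between libraries, 7.96%. The simulation therefore does not cover changes as wide as in these data, a distant library, or genes with very few reads.

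The genes and lists were chosen with earlier results of these data known. Every member is named. CPM per library was given for up to 4 tested members of each role with the highest mean CPM and the one with the largest change, and was extended, after values had been seen, to the other tested members. From other lists, the called genes with the smallest p were named, up to 4 per list, and further genes after their values were seen. Of the listed genes, 1 was not matched and is not analysed here, and some genes that the rule names are not reported here. Alternatives were DESeq2 1.42.0, limma-voom (limma 3.58.1), other scalings and filters, an adjusted p of 0.01, a minimum fold of 1.2, thinning to equal depth, a replicate block and leaving out each library.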

Additional observations from a re-analysis of the deposited data

How the results depend on the processing

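Over 17 alternative settings, 23 of the 26 tested genes kept their direction and their side of the threshold in each setting that tested them, the other three being C1R, C8G and CFD, and none changed sign. Of 438 such values, 10 lost the call (all for C1R) and 2 gained it (CFD without EA replicate 2 and C8G without EA replicate 3). The number called lower was 20 to 22 and the number called higher 2 to 4. With no filter on reads 30 genes were tested, and C4B (log2 fold change -3.06), CFP (1.77) and C3AR1 (4.80) passed as well. The median log2 fold change of the tested genes was -1.16 without the filter, where that of all genes was 0.247. It was -1.07 with a filter of 1 CPM in 3 libraries, -1.09 after thinning to equal depth, and -1.29 to -1.13 when 1 library was left out. These filters, thinning, and leaving out DMSO replicate 1 or 3 tested other sets of the genes (30 without the filter, 25 in the rest). For the -1.29 without EA replicate 3, with 26 genes tested, the cause was not tested. With a replicate block 12537 genes passed against 12680, and 2 complement genes were higher and 21 lower, C1R having an adjusted p of 0.0662 by edgeR. Deviations of same-numbered libraries correlated at -0.084, 0.027 and -0.015, which gives no sign of pairing by number. With 3 libraries per group this cannot exclude a pairing, and the labels state none. Depth limits C6, C7, C8A and C8B, whose EA levels rest on few reads each.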

Other observations

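Of 16 listed genes of the cytokine pathways that regulate liver plasma proteins, all tested, 7 were higher with EA (43.8%), 5 lower (31.2%) and 4 did not pass. The background was 40.5% in each direction, so these counts are no result about the list (median log2 fold change 0.12, against 0.00441 over all genes tested). IL6R, the interleukin-6 receptor gene, rose from 69.0 ± 1.55 to 329 ± 5.25 CPM (log2 fold change 2.25, SE 0.06). RELA, an NF-kB subunit gene, rose from 68.3 ± 2.29 to 134 ± 4.83 CPM. CEBPD, an acute phase transcription factor gene, fell from 15.3 ± 1.06 to 5.04 ± 0.742 CPM. Chosen after their values were seen, STAT3 and the interleukin-1 receptor gene IL1R1 fell, with log2 fold changes of -0.46 and -1.197.

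Of 10 liver transcription factor genes matched, 8 fell (80%, against 40.5% of all genes tested), 1 rose and 1 did not pass (median log2 fold change -0.49). NR1H4, the bile acid receptor gene, ONECUT1 and HNF4A were among those with the smallest p, with log2 fold changes of -6.80, -2.30 and -0.56. HNF4A went from 276 ± 8.21 to 187 ± 16.8 CPM (SD, n = 3). PROX1 was the gene that rose (0.35, SE 0.07). Whether these changes bear on the complement genes was not tested.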
